A study of Macaca mulatta with 2 samples.

Results

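Ribosomal protein genes encode the protein part of the cytosolic ribosome, the particle that translates mRNA. They were examined here in the prefrontal cortex of infant rhesus macaques with and without repeated exposure to sevoflurane, an inhaled anesthetic widely used in children. Rows of the count table were taken as members when their symbol was RPLP0, RPLP1, RPLP2 or RPSA or an RPL or RPS symbol with a number (optionally followed by A, X or L and a digit), and when the gene reached 1 CPM, the usual unit of reads scaled to the total of their library, in either library. The Y-linked RPS4Y1 and RPS4Y2 and the RPS6K kinases were left out. This gave 79 of the 33618 genes in the table, 48 with a large subunit symbol (RPL) and 31 with a small subunit symbol (RPS).

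The data were whole-number read counts from 1 control library and 1 sevoflurane library, both of prefrontal cortex and both labelled postnatal day 28. The sevoflurane animal received 2.5 to 3% sevoflurane for 4 h on each of postnatal days 7, 14 and 28 by the labels and by the results text of the paper, whereas its methods section gives later days for the exposures after the first. The methods state that the cortex was taken immediately after the last exposure, that anesthesia was given in pure oxygen with intubation, and that the infants went back to their mothers between exposures. How the control animal was handled is not described there, and the labels give no genotype. The series design has 3 animals per group, of which 1 per group was analysed here and the others were not. There were thus no replicates, so every difference below is between 2 libraries and not between the conditions, and no test could be made.

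The ribosome joins a small subunit, which reads the mRNA, with a large subunit, which forms the peptide bond. Each ribosome carries nearly all of its core proteins in equal copy number, and cells keep the output of the many unlinked ribosomal protein genes balanced. Their mRNAs share a tract of pyrimidines at the very start (the terminal oligopyrimidine or TOP tract), through which mTORC1 signaling and the RNA-binding protein LARP1 control their translation. In neurons these mRNAs are also found in axons and dendrites, and mutations in several of the genes cause Diamond-Blackfan anemia in humans.

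The control library held 16960880 reads and the sevoflurane library 9839105, a depth ratio of 1.72. All 8 neuron markers examined were expressed in both, and their summed level went from 5298 CPM (control) to 4621 CPM (sevoflurane). Of these, 6 were lower, while RBFOX3 moved furthest the other way, from 147 to 263 CPM. Markers of other cells moved by different amounts. The oligodendrocyte markers went from 4074 to 2004 CPM with 7 of 7 lower, the 7 astrocyte markers from 6147 to 4264 CPM with 5 lower, the 8 microglia markers from 233 to 258 CPM with 6 higher, and the 5 meningeal and choroid plexus markers from 203 to 347 CPM with 4 higher. The 4 oligodendrocyte precursor markers were all lower (419 and 318 CPM), 3 of the 5 endothelial markers were lower (211 and 206 CPM), and all 4 red blood cell markers were higher (24.8 and 80.8 CPM), with HBA1 at 0 in the control as the only marker without a read in a library. These marker counts go by the sign of the ratio, which was below 0 for 50.3% of all tested genes. Fewer markers had a 95% interval of the read counts apart from equal expression in some groups. Of the microglia markers, 4 lay above and 1 below. Above lay 3 meningeal and choroid plexus and 3 red blood cell markers, and 1 endothelial marker lay below. The part of cell composition in the ribosomal protein values was not tested. In bulk tissue, fewer cells of a type and less RNA per cell cannot be told apart.

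Ribosomal protein genes as a set stood slightly lower in the sevoflurane library. The 79 genes held 80601 control reads and 41121 sevoflurane reads, which was 0.475% of the control library (95% exact Clopper-Pearson interval 0.472 to 0.479%) and 0.418% of the sevoflurane library (0.414 to 0.422%). TMM scaling adjusts each library total by a factor taken from a trimmed mean of gene ratios. After this scaling, the log2 ratio of the summed reads (sevoflurane over control) was -0.21, with a counting interval of -0.23 to -0.19. Intervals here and below cover the counting of reads only and not differences between animals. The sources name no molecular identifiers, so copies of a molecule may count as separate reads and the intervals may be too narrow.

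Single genes gave the same direction more often than not. The median log2 ratio of the 79 genes was -0.29, with quartiles of -0.44 and 0.07, while the median over all 18050 genes that reached 1 CPM in a library was 0.00 with quartiles of -0.34 and 0.37. Of the 79 genes, 55 (69.6%) had a ratio below 0, against 50.3% of all genes tested. The median stayed below 0 under every scaling tried. It came closest to 0, at -0.13, when the reads of GAPDH served as the reference, a setting that moves all genes up by 0.15.

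Counting intervals separated many of these small differences from equal expression. The interval lay wholly below equal expression for 40 genes and wholly above it for 14, and it spanned it for 25. Over all tested genes, 28.1% lay below and 28.4% above, and intervals are narrower for genes with more reads. The differences were small in size, however. At a fold of 2 or more with an interval that left out equal expression, 1 of the 79 genes was higher and 0 were lower, against 7.56% of all tested genes higher and 5.47% lower. At 1.5-fold, 4 genes were higher and 13 lower, where 14.4% and 11.9% of all tested genes passed the same rule. With GAPDH reads as the reference, these counts became 6 higher and 6 lower, and 28 intervals lay below equal expression and 21 above. The shares over all tested genes were not computed for that reference, so these counts have no background beside them. Under TMM scaling, the share of ribosomal protein genes at least 1.5-fold lower, 16.5%, was not far from the background share. Most ratios were small and below 0, with an SD of the log2 ratios of 0.43 against 0.82 over all tested genes, which include many with few reads.

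**Figure D1:**
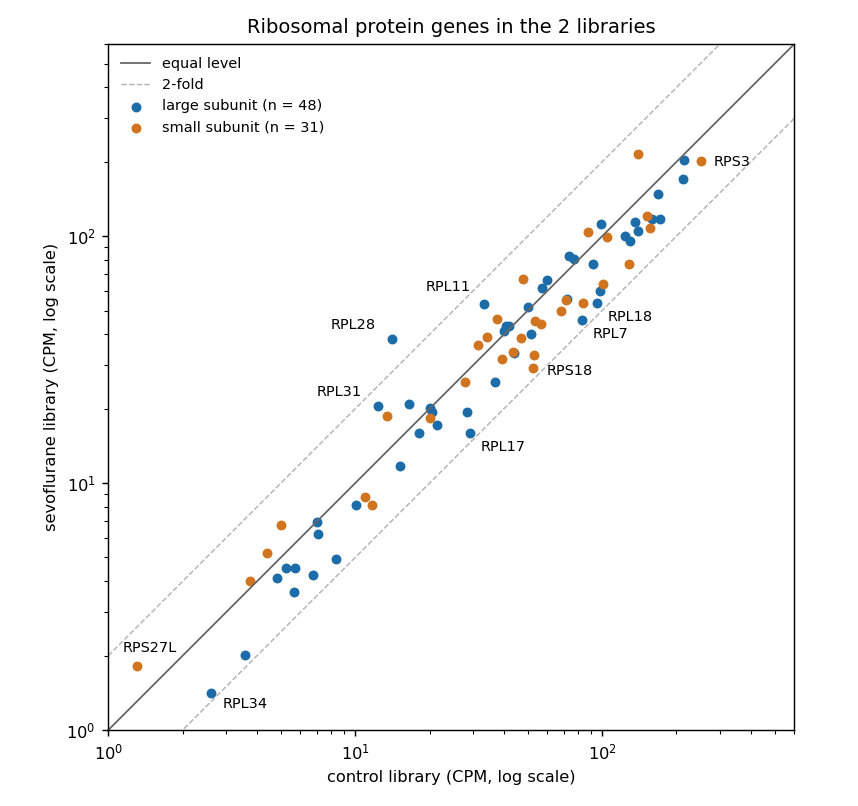
Level of each ribosomal protein gene in the control (x axis) and the sevoflurane library (y axis), both in TMM-scaled CPM on log scales, with 1 point per gene (blue, RPL symbols; orange, RPS symbols), a solid line of equal level and dashed lines at 2-fold. Most points sit a little under the line of equal level, RPL28 at 14.1 and 38.2 CPM is the only one above the upper 2-fold line, and none falls below the lower one.

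The median of the ribosomal protein genes was below 0 at all levels of reads, though the share of genes below 0 was near the background at some levels. Among genes with a mean of 100 to under 200 CPM, 12 of 14 ribosomal protein genes had a ratio below 0 (median -0.32), against 56.0% of the 1422 tested genes in that range (median -0.04). From 50 to under 100 CPM the median was -0.36 over 17 genes, with 10 below 0, and from 20 to under 50 CPM it was -0.24 over 21 genes, with 13 below 0. The tested genes of the same ranges had medians of -0.04 and -0.04. The shares below 0 were close there, at 58.8% of ribosomal protein genes against 54.2% of tested genes from 50 to under 100 CPM. From 20 to under 50 CPM they were 61.9% against 54.4%. With fewer reads, from 5 to under 20 CPM, 13 of 17 ribosomal protein genes were below 0 (median -0.18), and below 5 CPM 5 of 8 were (median -0.21). Of the tested genes in these ranges, 50.1% and 43.8% were below 0. Both genes at 200 CPM or more were below 0 as well, against 53.8% of the tested genes.

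**Figure D2:**
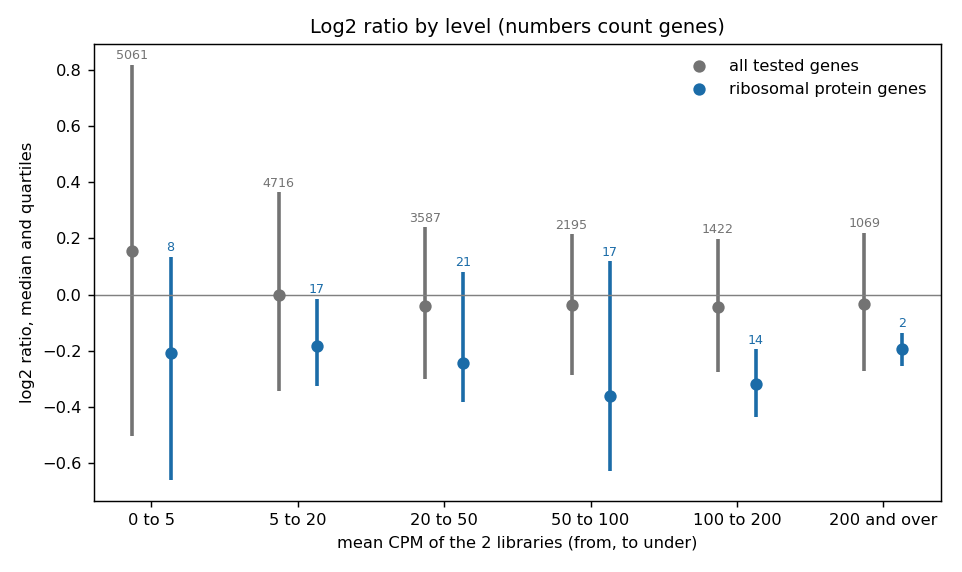
Log2 ratio of sevoflurane over control (y axis) in 6 ranges of the mean CPM of the libraries (x axis), for all tested genes (grey) and ribosomal protein genes (blue), with points at the median, bars over the quartiles and the number of genes above each bar. The blue median lies below the grey one in each range, for example -0.32 against -0.04 from 100 to under 200 CPM.

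The large and the small subunit gave close values. The 48 RPL genes had a median log2 ratio of -0.28, with 24 intervals below equal expression, 7 above and 17 spanning it. The 31 RPS genes had a median of -0.29, with 16 below, 7 above and 8 spanning it. Over all tested genes, 28.1% of intervals were below equal expression and 28.4% above. Summed over genes, the log2 ratio was -0.22 (interval -0.25 to -0.20) for the large subunit and -0.20 (interval -0.22 to -0.17) for the small subunit, so that the intervals of the subunits overlapped. The order of the genes by reads was also much alike between the libraries, with a Spearman correlation of 0.96 over the 79 genes, which share their transcript lengths and the same counting in both. This correlation describes genes and is no test.

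**Figure D3:**
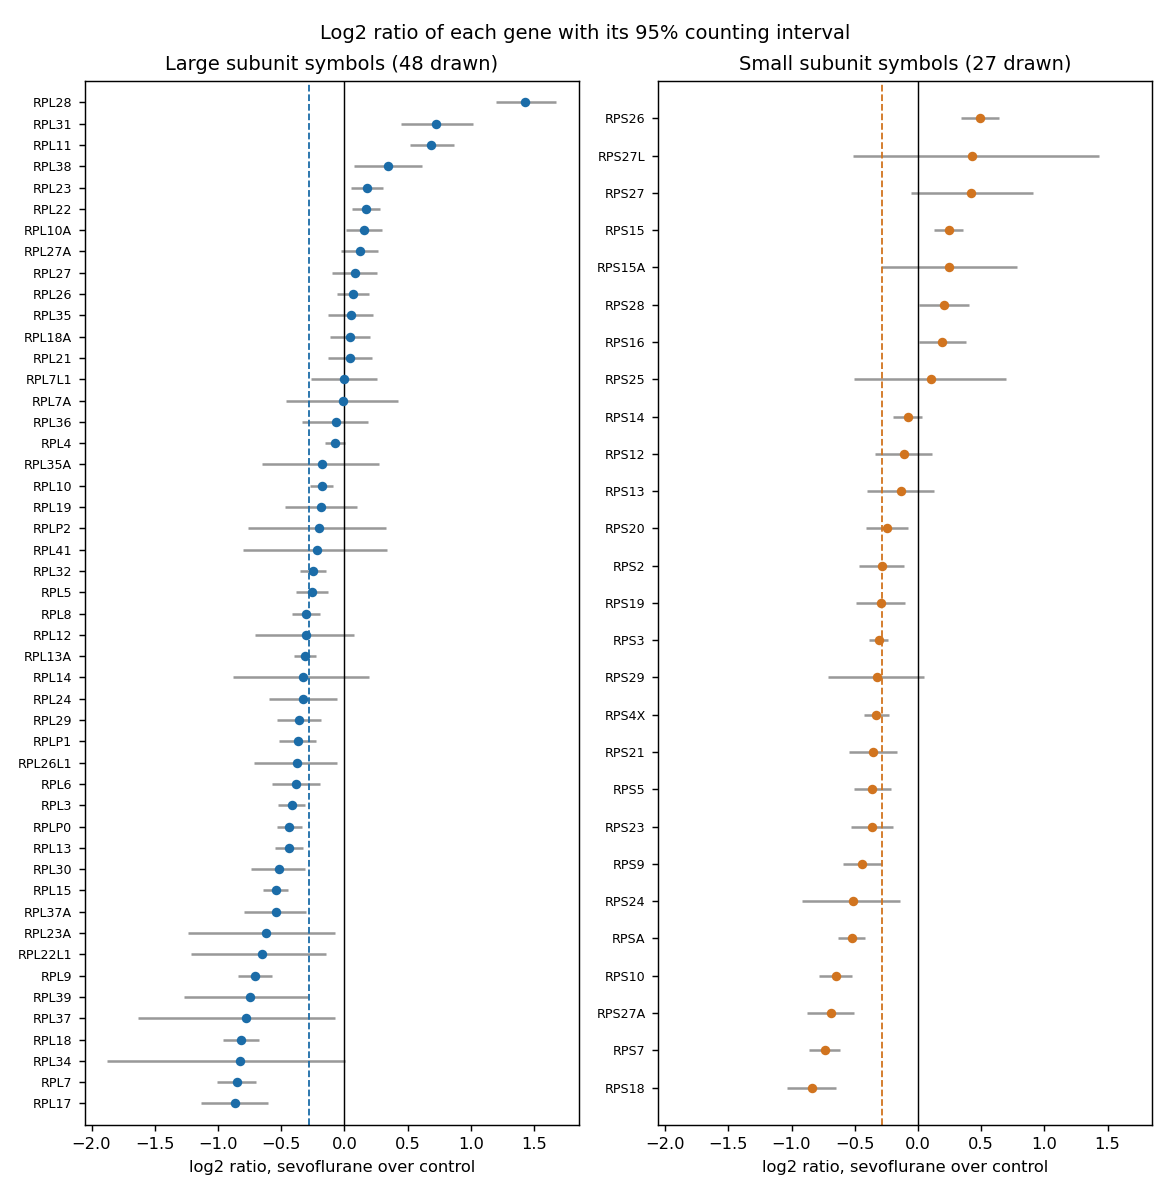
Log2 ratio of sevoflurane over control (x axis) for single genes, leaving out those not reported here (y axis), ordered within the large (left) and the small subunit (right), with points at the ratio, grey bars over the 95% counting interval, a solid line at equal expression and a dashed line at the median over all genes of the subunit, -0.28 and -0.29. RPL28 at 1.43 stands apart at the top, and the lowest ratios, RPL17 at -0.86 and RPS18 at -0.84, are of similar size in both subunits.

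Genes of the large subunit gave both ends of the order. RPL17, a protein at the mouth of the tunnel through which the new peptide leaves, had 488 control reads and 158 sevoflurane reads, or 29.0 and 15.9 CPM, and the lowest log2 ratio of the set at -0.86 (interval -1.14 to -0.61). RPL7 followed with 1396 and 456 reads (83.1 and 45.9 CPM, log2 ratio -0.85, interval -1.01 to -0.70). RPL18 had 1598 and 535 reads, or 95.1 and 53.9 CPM, at -0.82 (interval -0.96 to -0.68). RPL34, with only 44 and 14 reads, had a ratio of -0.83, but its interval of -1.88 to 0.00 just reached equal expression. Among these lowest genes the intervals overlapped, so their order cannot be told from counting error.

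Others of the large subunit were lower by a like amount. RPL37 had 60 control reads and 20 sevoflurane reads (log2 ratio -0.78, interval -1.63 to -0.08), RPL9 had 1647 and 597 (-0.70, interval -0.84 to -0.57) and RPL23A, an exit tunnel protein that binds the signal recognition particle, had 95 and 36 (-0.62, interval -1.24 to -0.07). RPL39, an X-linked gene whose small protein lines the tunnel, had 141 and 49 reads (-0.75, interval -1.27 to -0.29). These complete the canonical large subunit genes that passed the 1.5-fold rule on the lower side. Of the 7 exit tunnel proteins listed (RPL17, RPL19, RPL23A, RPL26, RPL31, RPL35 and RPL39), 3 were thus at least 1.5-fold lower, 1 was higher and 3 had intervals that spanned equal expression. At 1.5-fold, 11.9% of all tested genes were lower and 14.4% higher.

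RPL28 was the one ribosomal protein gene past 2-fold. It is a large subunit gene without a counterpart in budding yeast, and it had 237 control reads and 379 reads in the less deep sevoflurane library. This corresponds to 14.1 and 38.2 CPM, a 2.69-fold higher level (log2 ratio 1.43, interval 1.20 to 1.68). Its lower limit lay above the upper limit of RPL31, the next in the order. Reads of RPL28 were also set against those of other large subunit genes, a comparison that no scaling can move. Per 100 reads of RPL27A, which had more reads, they were 24.7 (control) and 61.6 (sevoflurane) (log2 change 1.32, interval 1.03 to 1.60). Per 100 reads of RPL31 they were 114 (control) and 187 (sevoflurane), a smaller change (0.70, interval 0.33 to 1.08). RPL27A was picked after its values were seen, and RPL28 had the highest ratio of the set. A rise of RPL28 against other members was thus fixed by this choice and is no separate evidence.

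RPL31 and RPL11 came next and could not be ordered against each other. RPL31, at the tunnel exit, had 207 and 203 reads, or 12.3 and 20.4 CPM (log2 ratio 0.72, interval 0.44 to 1.02). RPL11 had 556 and 530 reads, or 33.1 and 53.4 CPM (0.69, interval 0.52 to 0.86). RPL11 forms a particle with RPL5 and the smallest large subunit rRNA, and the free particle binds MDM2 and so stabilizes p53. RPL5, its partner, lay on the other side with 1549 and 765 reads (92.2 and 77.0 CPM, log2 ratio -0.26, interval -0.39 to -0.13). Reads of RPL11 per 100 reads of RPL5 were 35.9 (control) and 69.3 (sevoflurane) (log2 change 0.95, interval 0.73 to 1.16), so these partners moved apart by more than counting error.

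The stalk, by which the large subunit recruits and stimulates the translation factors that hydrolyze GTP, is built from RPLP0, RPLP1 and RPLP2. RPLP0 had 2675 and 1168 reads (159 and 118 CPM, log2 ratio -0.44, interval -0.54 to -0.34), and RPLP1 had 1208 and 552 (71.9 and 55.6 CPM, -0.37, interval -0.52 to -0.22). RPLP2 had far fewer reads, 88 and 45, and its ratio of -0.20 had an interval of -0.76 to 0.33. Within the stalk the balance did not move beyond counting error, since reads of RPLP1 per 100 of RPLP0 were 45.2 and 47.3 (log2 change 0.07, interval -0.11 to 0.24). For RPLP2 against RPLP0 the log2 change was 0.23, with an interval of -0.33 to 0.77.

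Small subunit genes gave ratios on both sides of equal expression. RPS18, in the head of the subunit, had 878 control reads and 290 sevoflurane reads, or 52.2 and 29.2 CPM (log2 ratio -0.84, interval -1.04 to -0.65). RPS7 had 2167 and 767 reads (-0.74, interval -0.86 to -0.62) and RPS10 had 1694 and 637 (-0.65, interval -0.79 to -0.52). RPS27A, which is made as a fusion with ubiquitin, had 894 and 327 reads (53.2 and 32.9 CPM, -0.69, interval -0.88 to -0.51). These genes were each at least 1.5-fold lower, from at least 878 control reads. RPSA, known also as the laminin receptor, was lower by less, with 2620 and 1076 reads (156 and 108 CPM, -0.52, interval -0.63 to -0.42).

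On the other side was RPS26, which contacts the mRNA at the exit channel. It had 805 and 668 reads, or 47.9 and 67.3 CPM (log2 ratio 0.49, interval 0.34 to 0.64), and its interval lay apart from those of the lower genes above.

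Further genes with intervals above equal expression moved less. They included RPL38 (277 and 208 reads, log2 ratio 0.34, interval 0.08 to 0.61), RPS15 (1471 and 1029 reads, 0.24, interval 0.13 to 0.36), RPS28, RPS16, RPL23, RPL22 and RPL10A, the last with the smallest ratio at 0.16 (interval 0.01 to 0.30).

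The genes with most reads were also mostly lower. The 5 with most reads, among them RPS3, RPL4, RPL13A and RPL10, together took 20.5% of the ribosomal protein reads of the control and 22.7% of those of the sevoflurane library. RPS3, at the mRNA entry channel and also a DNA repair factor, had 4215 and 2006 reads (251 and 202 CPM, log2 ratio -0.31, interval -0.39 to -0.24). RPL13A, which also acts in silencing of inflammatory mRNAs, had 3564 and 1698 reads (212 and 171 CPM, -0.31, interval -0.40 to -0.23). RPL4 was close to equal, with 3595 and 2014 reads (-0.08, interval -0.16 to 0.00), and the X-linked RPL10, which is needed for the last steps of large subunit maturation, had 2828 and 1477 (-0.18, interval -0.27 to -0.09). All 4 had ratios below 0, although RPL4 turned above 0 with the GAPDH reference.

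At the other end, several core genes had few reads. The lowest by mean CPM were RPS27L (22 control and 18 sevoflurane reads), RPL34, RPL37, RPS25 (63 and 40) and RPL41 (81 and 41), whose product is the shortest of all ribosomal proteins. RPS25 had a log2 ratio of 0.10 (interval -0.51 to 0.70), RPL41 one of -0.22 (-0.80 to 0.34). In all, 10 of the 79 genes had under 100 control reads while 29 had over 1000, although most of the proteins stand in equal copy number in the ribosome. Reads also grow with mRNA length, no transcript lengths were used here, and levels of different genes are therefore not compared. Ribosomal protein genes have many processed pseudogenes of nearly the same sequence in primates, and how the authors counted reads that match several places is not given in the sources used here, so the level of each gene is uncertain by an unknown amount.

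Several genes have a close paralog, and paralogs of ribosomal proteins are known to replace the main form in some tissues. RPL22L1 had 113 and 42 reads (log2 ratio -0.65, interval -1.22 to -0.15), while RPL22, an RNA-binding protein whose loss raises RPL22L1 in mice, had 1668 and 1108 (0.17, interval 0.06 to 0.28). Reads of RPL22L1 per 100 of RPL22 were 6.77 (control) and 3.79 (sevoflurane) (log2 change -0.84, interval -1.40 to -0.30). In the same sense, those of RPL26L1 (256 and 116 reads) per 100 of RPL26 (1291 and 799) were 19.8 and 14.5 (-0.45, interval -0.80 to -0.10). RPL7L1, a paralog with a role in ribosome assembly, went the other way against RPL7. With 339 and 200 reads it was at equal expression (0.00, interval -0.26 to 0.25), and its reads per 100 of RPL7 were 24.3 and 43.9 (log2 change 0.85, interval 0.55 to 1.15). For RPS27L, a p53 target, against RPS27 (84 and 67 reads), the change of 0.04 had an interval of -1.07 to 1.13 and could not be resolved.

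The other 3 paralogs listed matched by symbol but stayed under 1 CPM in both libraries. RPL10L, a testis gene, had 2 control reads and 0 sevoflurane reads, RPL39L had 3 and 0, and RPL3L, a gene of heart and skeletal muscle, had 0 and 4. The nearest gene inside the limit was RPS27L, at 1.30 and 1.83 CPM of the unscaled libraries, and the nearest outside was RPL3L, at 0 and 0.41.

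RPS4X is the X-linked gene of a protein that primates can also make from the Y chromosome. It had 2547 control reads and 1197 sevoflurane reads, or 152 and 121 CPM (log2 ratio -0.33, interval -0.43 to -0.23). Its Y-linked copies, left out of the set, had 1 control read and 502 sevoflurane reads, 394 of them on RPS4Y1 and 108 on RPS4Y2. When the reads of all 3 genes were summed, the log2 ratio was 0.17 (interval 0.08 to 0.26), and with RPS4Y1 alone added it was 0.08 (interval -0.01 to 0.17). The direction for this protein therefore depended on whether the Y-linked copies were counted. The methods describe an all-female control group and an anesthesia group with 1 male. By the Y-linked reads, the sevoflurane library came from a male and the control library from a female. Sex and exposure therefore cannot be told apart in these libraries.

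The canonical ribosome has 80 proteins in the lists used here, and 74 of their genes are among the 79. FAU, whose ribosomal protein is made as a fusion with a ubiquitin-like domain, had 546 and 330 reads (log2 ratio 0.03, interval -0.17 to 0.23). RPL36AL, a retrogene copy of RPL36A, had 216 and 158 (0.30, interval 0.00 to 0.61). RPS3A, RPS6, RPL36A and RACK1 are not listed in the table under those symbols and were not analysed here.

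Genes mutated in Diamond-Blackfan anemia, a failure of red cell production, were not all to one side. Of the 17 such genes listed, 7 had intervals below equal expression, 4 above and 6 spanning it, with a median log2 ratio of -0.18. The shares over all tested genes were 28.1% below and 28.4% above. RPS19, the most often mutated, had 658 and 317 reads (39.2 and 31.9 CPM, -0.29, interval -0.49 to -0.10). RPS26 and RPL11, given above, were among the 4 higher ones.

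Other parts of the protein synthesis machinery were set beside these genes. The 76 mitochondrial ribosomal protein genes (MRPL and MRPS symbols), which serve translation inside mitochondria, had a median log2 ratio of -0.16 with 27 intervals below equal expression and 7 above. At 1.5-fold, 12 were lower and 2 higher. Shares over all tested genes were 28.1% below and 28.4% above, and 11.9% lower and 14.4% higher at 1.5-fold. At 2-fold these shares were 5.47% lower and 7.56% higher. The only mitochondrial ribosomal protein genes past 2-fold were MRPL36 (87 and 18 reads, -1.44) and MRPL32 (200 and 56 reads, -1.06), named after their values were seen. The summed log2 ratio was -0.15 (interval -0.17 to -0.12), against -0.21 (-0.23 to -0.19) for the cytosolic genes. Both ribosomes thus had lower summed reads in the sevoflurane library after TMM scaling, by amounts of similar size whose intervals did not overlap. The GAPDH reference moves all log2 ratios up by 0.15, as much as the mitochondrial sum lay below 0. The lower mitochondrial sum therefore depended on the scaling, while the cytosolic sum stayed below 0 at -0.059.

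Other mRNAs with a TOP tract were nearer to equal expression. Of 21 such genes listed, mainly translation factors, 18 were tested, with a median log2 ratio of -0.08, 5 intervals below equal expression, 5 above and 0 past 1.5-fold in either direction. Among all tested genes, 28.1% of intervals lay below and 28.4% above, and 11.9% passed 1.5-fold lower and 14.4% higher. EEF1A1, which delivers aminoacyl-tRNA to the ribosome, had 5148 and 2472 reads (306 and 249 CPM, -0.30, interval -0.37 to -0.23). EEF2, which moves the ribosome along the mRNA, had 23482 and 16839 (1397 and 1696 CPM, 0.28, interval 0.25 to 0.31). These factors, which act in turn in each elongation cycle, thus lay on opposite sides.

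Ribosome biogenesis genes, which make and assemble rRNA and subunits, had a median log2 ratio of -0.21 over 43 tested genes. Of these, 21 had intervals below equal expression and 5 above, and 6 were at least 1.5-fold lower and 2 higher. The background shares were 28.1% below and 28.4% above, and 11.9% lower and 14.4% higher at 1.5-fold. At 2-fold they were 5.47% lower and 7.56% higher. The count at least 1.5-fold lower was thus not far from the background. The 3 past 2-fold were BYSL, needed for small subunit assembly (187 and 40 reads, -1.43), EIF6, which keeps the new large subunit from joining too early (447 and 123 reads, -1.09), and NIP7, a large subunit assembly factor (158 and 45 reads, -1.03). On the other side stood UBTF, the transcription factor of the rRNA genes (2539 and 2374 reads, 0.66), and RRS1 (75 and 76 reads, 0.76). These genes were named after their values were seen.

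The mTORC1 pathway, which sets the translation of TOP mRNAs, had a median log2 ratio of -0.01 over 15 tested genes of 16, with 6 intervals above equal expression and 2 below. The background shares were 28.4% above and 28.1% below, and at 1.5-fold 14.4% higher and 11.9% lower. MTOR itself had 2111 and 1326 reads (126 and 134 CPM, 0.09, interval -0.01 to 0.19). RHEB, the GTPase that switches the kinase on, was the 1 gene at least 1.5-fold lower (1823 and 682 reads, -0.66). The 2 higher ones were MYC (88 and 79 reads, 0.59) and DEPTOR, an inhibitor of the kinase (254 and 232 reads, 0.62). MYC is a transcription factor that was listed with the pathway and is not a component of it. These were named after their values were seen. LARP1 had only 10 and 6 reads in this table and was not tested.

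**Figure D4:**
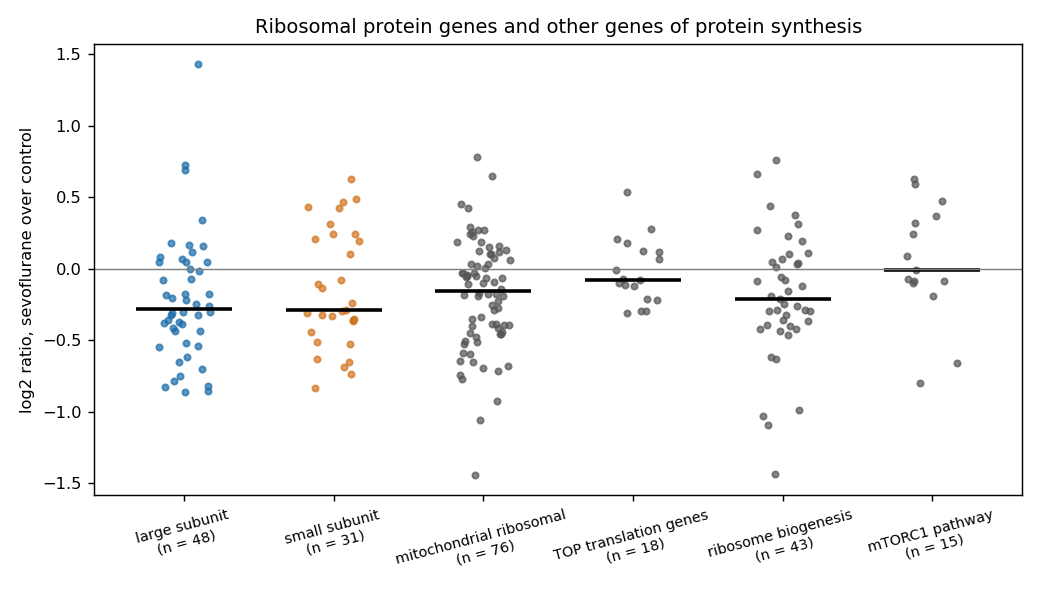
Log2 ratio of sevoflurane over control (y axis) for the tested genes of 6 groups (x axis), with 1 point per gene, spread sideways for legibility, and a black bar at each median. The medians are -0.28 and -0.29 for the large and the small subunit, -0.16 for mitochondrial ribosomal proteins, -0.08 for other TOP mRNAs, -0.21 for ribosome biogenesis and -0.01 for the mTORC1 pathway, and each group has genes on both sides of 0.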

How the data were processed

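The libraries, 1 per group, were assigned by sample title. The values the authors deposited are raw read counts per gene, and HISAT2 2.0.4 is named in the submitters' processing notes. The counting tool, genome build and annotation are not given in the sources used here. Depth was 16960880 and 9839105 reads.

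TMM factors (edgeR 4.0.16, R 4.3.3) were computed over 18050 genes that reached 1 CPM in a library, and 2 was the prior count of the log2 ratios. Intervals were exact Clopper-Pearson limits at 95% (scipy 1.17.1). Ratios between 2 genes used exact conditional odds ratios. There is no p-value, since 1 library per group leaves edgeR no residual degrees of freedom. The procedure was tested on simulated data.

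The genes and lists were chosen with earlier results of these data known. Genes named are the 5 highest and 5 lowest ratios, the 5 highest and 5 lowest mean CPM, paralogs, stalk genes, RPSA, RPS4X, RPL5, RPL11 and RPS27A. Those past 1.5-fold, those with intervals above equal expression and RPS19 were added after their values were seen. RPS6 was also to be named but is not listed under that symbol, and some items that this choice covers are counted in the set but not reported here. RefSeq names matched 78 of the 79 genes. A planned grouping by protein length was not run, because no protein lengths were used here. Figures were drawn with matplotlib 3.10.9. The scaling was varied (library totals, upper quartile, size factors of DESeq2 1.42.0, TMM without the 79 genes), as were the prior count (0.5) and the filter (1 read, 5 CPM). Other alternatives were a sampled-down control library, intervals with an error rate of 0.1%, leaving out the 5 genes with most reads, and the canonical genes alone. Added after seeing the data were GAPDH as reference and genes with at least 100 reads.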

Additional observations from a re-analysis of the deposited data

How the results depend on the processing

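The median log2 ratio of the ribosomal protein genes stayed below 0 under all 12 alternatives, from -0.31 to -0.13. The number with a ratio below 0 stayed between 48 and 57. Intervals at another error rate cannot move either value. A change of scaling moves all log2 ratios by nearly the same amount, at most 0.027 apart from the GAPDH reference. Most alternatives could therefore hardly have changed the direction of the median. The log2 ratio of their summed reads also kept its direction. It left its counting interval with library totals (-0.19), a filter of 1 read (-0.23), a filter of 5 CPM (-0.19), without the 5 genes with most reads (-0.25) and with GAPDH reads as the reference (-0.059), the last chosen after seeing the data. The GAPDH reference, which moves all log2 ratios by 0.15, brought the genes at least 1.5-fold lower from 13 to 6 and those higher from 4 to 6, and the intervals below and above equal expression from 40 and 14 to 28 and 21. The filter of 1 read adds RPL3L, RPL10L and RPL39L and gave 2 genes at least 2-fold higher. Sampling down the control gave 1 gene at least 2-fold lower. With intervals at an error rate of 0.1%, 7 genes lay above equal expression and 30 below. Shares over all tested genes were not computed under these alternatives, so their counts have no background beside them. Of 861 values of single genes, 31 left their counting interval, all with the GAPDH reference, and 0 of those with an interval apart from equal expression changed direction. The 861 include 79 values with intervals at the other error rate and 76 with the filter of at least 100 reads, which could not move.

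No paired analysis was possible because there is only 1 library on each side, and for the same reason no replicate could be left out. Depth limits the genes with few reads, with intervals from 0.154 to 1.95 wide on the log2 scale.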
